A study of Mus musculus with 9 samples.

Results

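The immediate early genes Fos, Fosb, Jun, Junb, Egr1, Egr3, Arc, Npas4, Nr4a1 and Ier2 were followed across bulk RNA sequencing libraries of the paraventricular nucleus of the hypothalamus (PVN). They were chosen by name as genes known to be induced by cell activity, with earlier results of these data known. All 10 were found by their symbols among the 27179 genes of the count table. The table holds 9 libraries, each from a tissue punch of a single wild type male C57BL/6J mouse (C57BL/6 in the sample labels), and each of 3 groups holds 3 mice. For 12 weeks from an age of 5 weeks, Control mice were fed chow in which fat supplied 16% of calories, and HFD mice a high-fat diet in which it supplied 60%. HFD+Mino mice ate the same high-fat diet and received minocycline, a tetracycline antibiotic that dampens microglial activation, in their drinking water during the final 6 weeks (40 mg/kg/day), when Control and HFD mice drank tap water. The sample labels give an age of 35 days, which is that of the start of the diet. These mice had no tolerance tests, and the time between handling and tissue collection is not given in the sources used here.

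Immediate early genes are transcribed within minutes of a stimulus, without new protein synthesis, when calcium, cAMP or kinase signals reach transcription factors such as SRF and CREB that already sit on their promoters. Their RNAs are short-lived, so that their level reflects the recent past of a cell, and Fos is widely used to map activated neurons in the PVN. Fos and Fosb pair with Jun or Junb to form the transcription factor AP-1, Egr1 and Egr3 are zinc finger factors, Nr4a1 is an orphan nuclear receptor and Npas4 is a factor that neurons induce through calcium entry. Arc encodes a cytoskeleton-associated protein of dendrites that takes part in removing AMPA receptors from synapses, and Ier2 encodes a small nuclear protein.

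Promoter windows show what 6 of the genes share at their starts. RefSeq windows on GRCm38.p6, from 250 bases before to 50 bases after the start, were matched for Fos, Fosb, Jun, Junb, Npas4 and Nr4a1. No window was matched for Arc, Ier2 and Egr3, and Egr1 was left out of the search. The core TGACG of the cAMP response element (CRE), a recognition sequence of CREB, was found on either strand in 5 of these 6 windows and in 20.8% of the 32851 windows of all genes. The 6 windows held 58.7% to 72.3% G and C, against a median of 52.7% over all windows. The part of base composition in this contrast was not tested. Fos, Junb and Nr4a1 are shown because their levels moved together across the libraries, and Jun because it was the 1 of the 6 windows without TGACG. Capitals mark TGACG on either strand, the EGR site GCGNGGGCG, the letters TATAAA on the gene strand and, in Jun, TGACATCA, which was added to the search after the Jun window had been read and which does not overlap any of the others.
Fos: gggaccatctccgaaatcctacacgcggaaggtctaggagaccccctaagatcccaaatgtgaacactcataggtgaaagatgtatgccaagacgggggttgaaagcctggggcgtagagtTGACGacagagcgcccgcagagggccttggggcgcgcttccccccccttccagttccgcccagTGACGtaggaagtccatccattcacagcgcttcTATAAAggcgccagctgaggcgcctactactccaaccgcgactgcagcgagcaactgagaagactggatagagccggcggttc
Junb: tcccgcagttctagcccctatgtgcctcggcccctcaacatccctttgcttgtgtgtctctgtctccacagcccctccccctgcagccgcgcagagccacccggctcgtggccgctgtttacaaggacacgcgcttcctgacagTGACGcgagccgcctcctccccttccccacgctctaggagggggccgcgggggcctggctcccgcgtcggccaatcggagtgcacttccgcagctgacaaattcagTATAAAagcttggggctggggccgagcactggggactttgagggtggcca
Nr4a1: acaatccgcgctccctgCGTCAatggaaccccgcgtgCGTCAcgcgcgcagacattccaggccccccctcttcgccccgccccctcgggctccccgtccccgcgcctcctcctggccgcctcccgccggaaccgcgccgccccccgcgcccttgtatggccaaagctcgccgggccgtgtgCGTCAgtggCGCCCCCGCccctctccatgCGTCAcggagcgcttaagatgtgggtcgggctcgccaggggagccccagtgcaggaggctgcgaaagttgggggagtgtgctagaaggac
Jun: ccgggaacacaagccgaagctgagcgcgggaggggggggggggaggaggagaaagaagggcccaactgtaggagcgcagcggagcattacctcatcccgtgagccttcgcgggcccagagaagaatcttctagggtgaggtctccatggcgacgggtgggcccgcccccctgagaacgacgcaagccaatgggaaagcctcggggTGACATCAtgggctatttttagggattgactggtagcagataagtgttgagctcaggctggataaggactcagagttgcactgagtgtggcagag
The windows lie at chr12:85473640-85473939 (plus strand), chr8:84978699-84978998 (minus strand), chr15:101266596-101266895 (plus strand) and chr4:95052173-95052472 (minus strand). In Fos this core begins 129 and 66 bases before the start and TATAAA begins 33 bases before it. Junb holds the core once, 106 bases before its start, whereas Nr4a1 holds it 4 times, the nearest 40 bases before the start. In Junb, TATAAA begins 0 bases before the annotated start, that is at the start itself. TATAAA was found in 2 of the 6 windows and in 8.32% of all windows. In Jun, TGACATCA begins 45 bases before the start, and these letters occur in 3.62% of all windows. The EGR site was found in Nr4a1 and Fosb and in 5.55% of all windows. The full CRE, TGACGTCA, occurs in 1.79% of all windows, the AP-1 site TGANTCA in 7.81% and the CArG box, which SRF binds, in 1.63%, and 0 of the 6 windows held any of the 3. These matches describe letters within 300 bases and leave out sites farther upstream. They do not cover Egr1, Egr3, Arc or Ier2, whose windows were not searched for any of these sites.

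Within the gene bodies, Fos lies on chromosome 12 of GRCm38 from 85473890 to 85477274, Jun on chromosome 4 from 95049036 to 95052222, Junb on chromosome 8 from 84976909 to 84978748, Nr4a1 on chromosome 15 from 101253902 to 101274795, Arc on chromosome 15 from 74669081 to 74672570 and Npas4 on chromosome 19 from 4984353 to 5003439. The promoter windows of Nr4a1 and Npas4 lie inside these spans, at internal starts and not at the gene boundary. Exons of Jun share 232 nt with the noncoding gene Junos, and exons of Junb share 173 nt with Prdx2. Counts of the shared stretches cannot be assigned to one gene with certainty. The exon length of the 10 genes ran from 1522 nt in Ier2 to 6243 nt in Fosb, with a median of 3349 nt against 4335 nt over the 15625 tested genes with a known length. Their GC-richest stretch of 100 nt held between 70% and 83% G and C, with a median of 76% against 72%.

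HFD replicate 1 had the fewest counts (17728590) and Control replicate 1 the most (42326213). The count table was scaled with edgeR's TMM method to counts per 1000000 (CPM), and 17344 genes, including 9 of the 10 immediate early genes, passed edgeR's filter on low counts. The tissue label was checked against PVN markers. Oxt and Avp, which encode oxytocin and vasopressin, were at 0.77 and 0.149 CPM in the library labelled Control replicate 1, and Otp, a transcription factor of these neurons, had 0 counts there. In the other 8 libraries Oxt was at 427 CPM or higher and Avp at 157 CPM or higher. Mbp, a myelin gene, was at 18005 CPM in Control replicate 1 and between 1183 and 4361 CPM elsewhere. PVN marker RNA was thus nearly missing from this library. The pairwise comparisons of the immediate early genes with Control are given with and without it, and most other results include it. The 6 PVN markers summed to 37726 CPM in HFD+Mino replicate 1 and to 31917 CPM in HFD+Mino replicate 2, whereas no other library exceeded 3726 CPM. The ribosomal RNA precursor Rn45s was at 3480 to 3830 CPM in HFD and at most 1350 CPM in the other groups, and the mitochondrial genome took from 1.21% of the counts in Control replicate 3 to 6.21% in HFD+Mino replicate 2.

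Expression of the immediate early genes spanned a wide range in the PVN. Per kb of exon and averaged over the 9 libraries, Fos had the highest level with 24.5 CPM per kb, followed by Egr1 (14.8 CPM per kb), Jun (13.6 CPM per kb) and Junb (13.3 CPM per kb). Nr4a1, Arc and Ier2 stood between 5.71 and 6.63 CPM per kb. Npas4 was at 0.487 CPM per kb, Fosb at 0.192 CPM per kb and Egr3 at 0.0372 CPM per kb. The neighbours Egr1, Jun and Junb, and likewise Nr4a1, Arc and Ier2, differed by less than the spread between mice. Egr3 had 52 counts in all 9 libraries together, between 1 and 11 in each Control and HFD library and 0, 4 and 18 in HFD+Mino, and was left out of the main test by the filter. Without the filter its HFD+Mino against Control log2 fold change was 0.61 with a standard error (SE) of 1.40, so that a difference was not detectable at this depth. Each SE given here was derived from the log2 fold change and its test statistic.

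Fos was at 32.5, 111 and 168 CPM in Control replicates 1 to 3, at 26.2, 42.7 and 55.0 CPM in HFD replicates 1 to 3 and at 26.8, 12.5 and 43.5 CPM in HFD+Mino replicates 1 to 3. The means were 104 ± 68.0, 41.3 ± 14.5 and 27.6 ± 15.5 CPM (SD, n = 3 each). Control replicates 2 and 3 were therefore far above all others, while Control replicate 1 lay within the range of the high-fat diet groups. Nr4a1 was at 10.1, 29.7 and 77.7 CPM in Control, 13.1, 16.7 and 28.2 CPM in HFD and 10.5, 2.67 and 20.6 CPM in HFD+Mino replicates 1 to 3. Junb stood at 20.2, 41.1 and 71.8 CPM in Control, 25.5, 30.7 and 40.2 CPM in HFD and 9.11, 5.87 and 31.0 CPM in HFD+Mino. In Nr4a1 and Junb Control replicate 3 alone stood far above the rest, and in all 3 genes the groups overlapped.

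Egr1 separated the minocycline group from the untreated high-fat diet group. It was at 31.8, 86.4 and 155 CPM in Control replicates 1 to 3, at 54.6, 66.6 and 135 CPM in HFD and at 9.65, 10.3 and 46.6 CPM in HFD+Mino. Every HFD+Mino library lay below every HFD library. The Control range covered all HFD libraries and HFD+Mino replicate 3, and HFD+Mino replicates 1 and 2 lay below it. Arc was at 34.3, 21.7 and 27.3 CPM in Control, 16.8, 24.6 and 28.6 CPM in HFD and 10.6, 1.60 and 10.4 CPM in HFD+Mino. All HFD+Mino values of Arc lay below those of both other groups, which overlapped each other.

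Jun was the 1 tested immediate early gene with its highest group mean in HFD. Its values were 18.5, 28.6 and 53.7 CPM in Control, 51.2, 82.2 and 89.5 CPM in HFD and 25.7, 17.1 and 24.3 CPM in HFD+Mino, so that HFD lay above HFD+Mino without overlap and overlapped Control only in that HFD replicate 1 was below Control replicate 3. Npas4 had its highest values in Control, with 2.43, 3.95 and 5.92 CPM, against 1.61, 1.04 and 0.473 CPM in HFD and 0.890, 0.409 and 1.42 CPM in HFD+Mino. Both high-fat diet groups lay below all Control libraries. These Npas4 values rest on 98 to 201 counts per library in Control, 19 to 36 in HFD and 11 to 52 in HFD+Mino. Ier2 varied least, with 11.5, 8.98 and 11.5 CPM in Control, 5.22, 10.5 and 9.46 CPM in HFD and 8.83, 5.61 and 6.69 CPM in HFD+Mino. Fosb ran from 0.111 to 3.39 CPM on 3 to 115 counts per library, and its groups overlapped throughout.

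**Figure D1:**
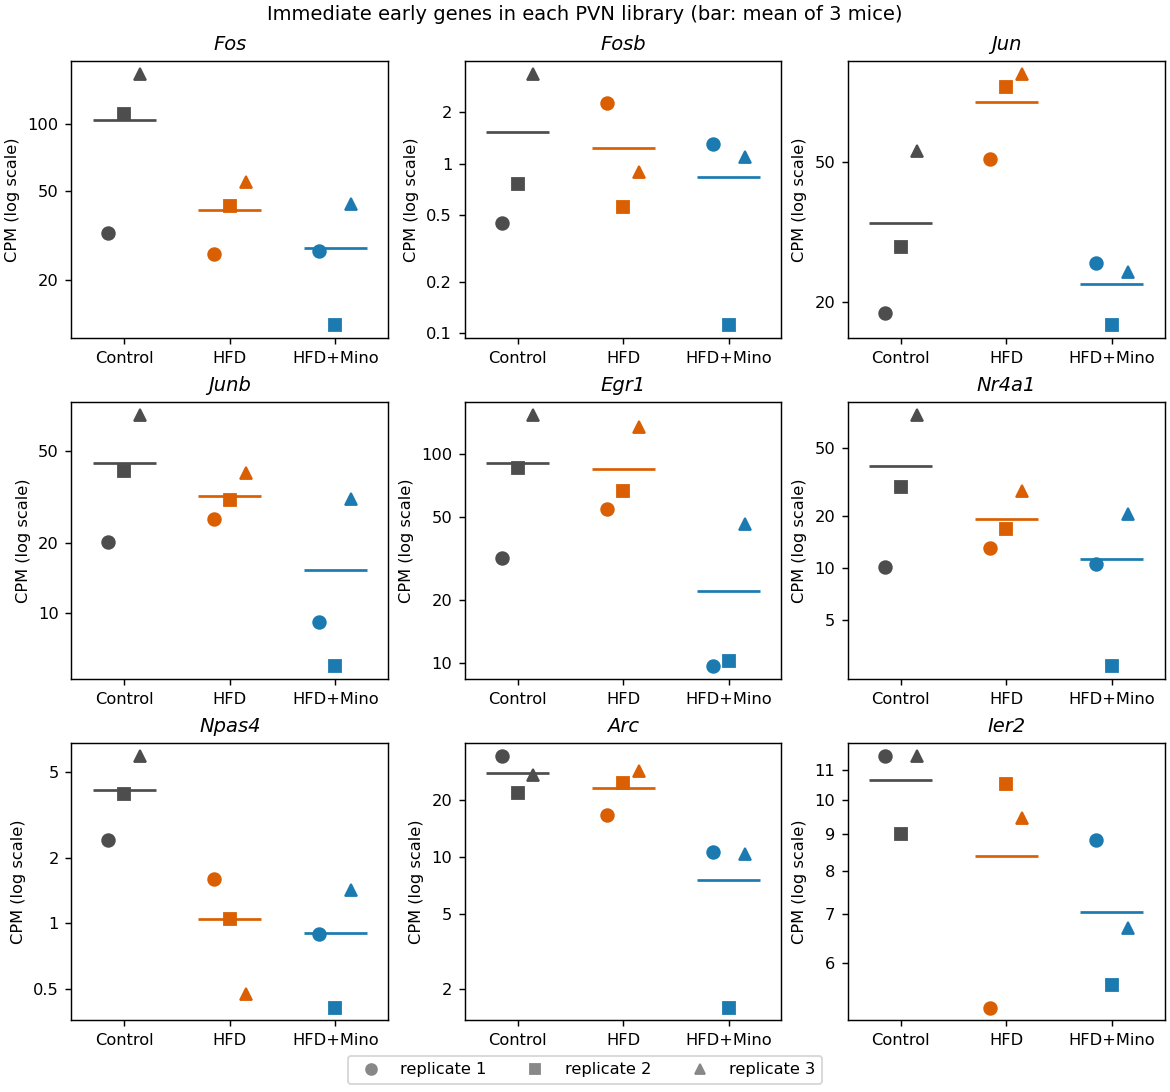
CPM on a log scale for the 9 tested immediate early genes in each library, with groups on the x axis, symbols for replicates 1 to 3 and a bar at the mean of 3 mice. Jun is highest in HFD at 51.2 to 89.5 CPM, Arc is lowest in HFD+Mino at 1.60 to 10.6 CPM, and in Fos, Nr4a1, Junb and Egr1 Control replicate 1 sits well below the other Control libraries.

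To test the effect of diet, HFD was compared with Control. The model (edgeR, quasi-likelihood) of the 3 group means was fitted to all 9 libraries and all 17344 genes, and a gene was called at a Benjamini-Hochberg false discovery rate (FDR) under 0.01 and a fold change of at least 1.5. Of the 9 tested immediate early genes 0 were called, where 1.74% of all tested genes were, and DESeq2 and edgeR's likelihood ratio test also called 0. Unadjusted p was under 0.05 for 3 of them, 2 lower (9.22% of all tested genes) and 1 higher (11.3%). Npas4 had a log2 fold change of -1.99 (SE 0.61, FDR 0.0873), Fos of -1.33 (SE 0.56, FDR 0.209) and Jun of 1.14 (SE 0.37, FDR 0.105). Nr4a1 was at -1.02 (SE 0.73) and Junb at -0.47 (SE 0.58), while Fosb, Ier2, Arc and Egr1 lay between -0.34 and -0.09. The log2 fold change was below 0 for 8 of the 9 genes and for 49.7% of all tested genes, with medians of -0.34 and 0.00.

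Because Control replicate 1 carried almost no PVN marker RNA, the comparison was repeated without it. Fos then had a log2 fold change of -1.76 (FDR 0.0732), Nr4a1 of -1.47 (FDR 0.347), Npas4 of -2.27 (FDR 0.0962) and Jun of 0.85 (FDR 0.306), and again 0 of the 9 genes were called. With all libraries, only Npas4 was lower in every HFD library than in every Control library, a separation that 16% of all tested genes showed in this direction. Without Control replicate 1 the genes with this separation were Fos, Junb, Npas4 and Nr4a1, 4 of 9 against 19.2% of all tested genes. These shares are not like for like, since Control replicate 1 was lowest in Control in 7 of the 9 genes and in 39.7% of all tested genes. Control replicate 3 bore on the result in the opposite way, since without it Nr4a1 was at -0.039 and Junb at 0.066, and Egr1 and Fosb had log2 fold changes above 0. The number of genes below 0 was then 5 of 9 and their median -0.039.

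HFD+Mino was compared with HFD to test the effect of minocycline under the high-fat diet. All 9 genes had a lower fitted mean in HFD+Mino, against 49.7% of all tested genes, but 0 were called, where 4.15% of all tested genes were called and 2.16% were called lower. Unadjusted p was under 0.05 in 3 of the 9 genes, in each case lower, and in 19.8% of all tested genes in this direction. These 3 were Jun (log2 fold change -1.73, SE 0.38, FDR 0.0123), Arc (-1.63, SE 0.54, FDR 0.0446) and Egr1 (-1.94, SE 0.69, FDR 0.0558). They were also the 3 genes whose HFD+Mino and HFD libraries did not overlap, which 23.5% of all tested genes showed in this direction. Junb was at -1.06 (SE 0.58), Nr4a1 at -0.78 (SE 0.73) and Fos at -0.58 (SE 0.56), and Npas4, at -0.17 (SE 0.61), had close values in both high-fat diet groups. The median of the 9 genes, -0.78, became -0.31 without HFD+Mino replicate 2, and the number with a lower mean became 7 without HFD replicate 1.

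Jun lay close to the threshold. It passed with DESeq2 (FDR 0.000186), which also called Arc (FDR 0.00999), and with edgeR's likelihood ratio test (FDR 0.000309), and over all alternatives its FDR ran from 0.000186 to 0.0600. Those 2 methods called 3878 and 3314 of all 17344 tested genes, where the main fit called 719. Leaving out Control replicate 1 brought the FDR of Jun to 0.00683, and leaving out Control replicate 3 brought it to 0.00634. Without HFD+Mino replicate 3, whose values were the highest of its group in 5 of the 9 genes, Jun, Egr1 and Junb were called, with log2 fold changes of -1.80, -3.10 and -2.10. How many of all tested genes this fit called against HFD is not given here. In the 3-way test it called 2397 of 17836, where the main fit called 369 of 17344. Jun kept its direction in this comparison under every alternative run, with log2 fold changes from -1.94 to -1.57 when single libraries were left out. HFD+Mino replicates 1 and 2, which held the highest PVN marker sums, were also the lowest libraries of Egr1 and Junb, and the part of the PVN marker level in these differences was not tested.

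HFD+Mino was also compared with Control, and this comparison shares libraries with both others. The fitted means of all 9 genes were lower in HFD+Mino, against 51.2% of all tested genes, with a median log2 fold change of -1.79 against -0.02 over all tested genes. Npas4 (-2.16, SE 0.61), Egr1 (-2.03, SE 0.69), Fos (-1.91, SE 0.57), Arc (-1.88, SE 0.54), Nr4a1 (-1.79, SE 0.75) and Junb (-1.53, SE 0.59) had an unadjusted p under 0.05, which is 6 of 9 genes where 8.63% of all tested genes were lower at this p. Fosb (-0.86, SE 0.95), Ier2 (-0.60, SE 0.33) and Jun (-0.59, SE 0.37) did not. Over the 9 genes the FDR ran from 0.132 for Npas4 to 0.608 for Fosb. The count of 6 became 3 without Control replicate 3, without HFD+Mino replicate 1 or without HFD+Mino replicate 2, and 7 without Control replicate 1. Without Control replicate 3 the median was -0.999 and 8 of the 9 genes had lower means, and without HFD+Mino replicate 2 the median was -1.33. Called genes numbered 0 of 9 and 0.0% of all tested genes, and DESeq2 and the likelihood ratio test called 0 of the 9 as well.

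Arc, Npas4 and Ier2 were lower in each HFD+Mino library than in each Control library, as were 10.1% of all tested genes. When Control replicate 1 was left out, 8 of the 9 genes, all but Fosb, separated in this way, against 16.2% of all tested genes. This library was the lowest Control library in 7 of the 9 genes and in 39.7% of all tested genes, so these shares are not like for like. Several of the genes also varied together among mice, so that these 8 are not independent. Without Control replicate 1 the log2 fold changes were -2.34 for Fos, -2.25 for Nr4a1, -2.44 for Egr1 and -2.43 for Npas4, each with an FDR of 0.147, and 0 genes passed. Control and HFD+Mino libraries with the same number deviated together weakly across all tested genes, with correlations of 0.135, 0.163 and 0.292. Control replicate 2 and HFD replicate 1, of unlike number, reached 0.167. When Control and HFD+Mino were blocked on the replicate number, an alternative chosen after the data were seen, Egr1 passed against Control (log2 fold change -2.16, FDR 0.00968). Arc, Egr1, Jun and Junb then passed against HFD (FDR 0.00561, 0.00144, 0.00262 and 0.00847). Without HFD+Mino replicate 3, Egr1 (-3.20) and Junb (-2.57) passed against Control. How many of all tested genes the block and this fit called in these comparisons is not given here. In the 3-way test the block called 2283 of 17344 genes, where the main fit called 369. The fit without HFD+Mino replicate 3 called 2397 of 17836 in that test.

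**Figure D2:**
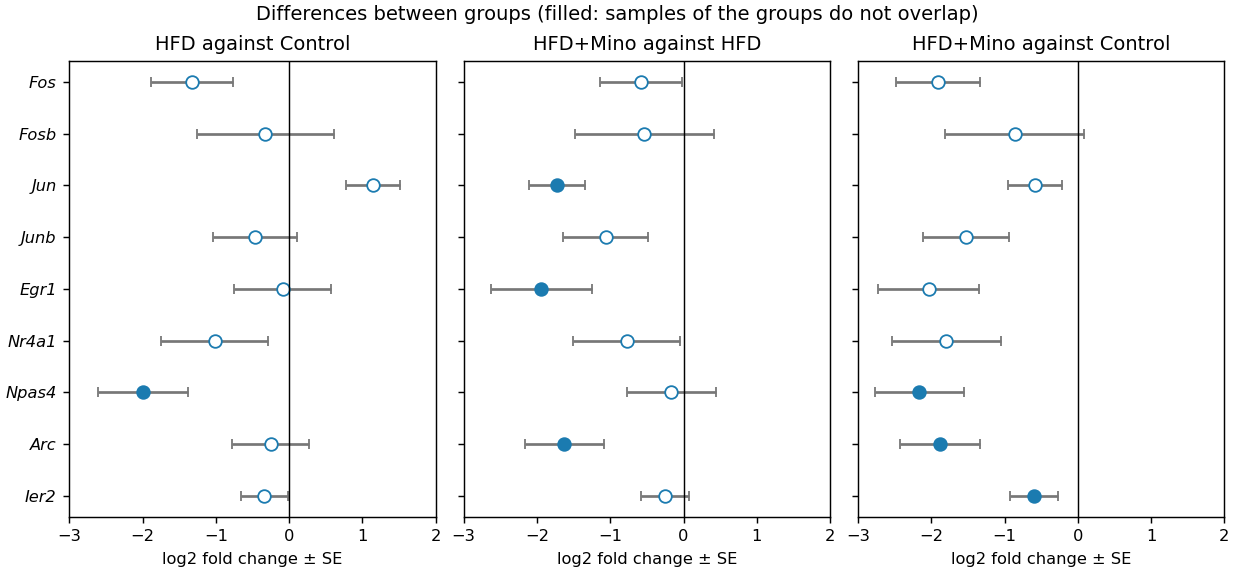
Log2 fold change on the x axis with its SE for the 9 tested genes in the 3 comparisons, filled where the libraries of both groups do not overlap. All 9 points lie below 0 in both comparisons of HFD+Mino, and Jun at 1.14 is the 1 point above 0 in HFD against Control.

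The 3-way test asked whether any of the groups differed, with a call requiring HFD to be the highest or lowest group and to stand 1.5-fold or more away from the average of the groups. In edgeR's quasi-likelihood test 0 of the 9 genes were called, where 2.13% of all tested genes were, and 5 had an unadjusted p under 0.05, as had 39.0% of all tested genes. Jun was farthest above the mean of the groups, by 0.96 on the log2 scale (FDR 0.0225), and DESeq2 called this 1 gene (FDR 0.00041). Npas4 lay 0.61 below it on that scale, with an FDR of 0.0340, but HFD was not its lowest group. With the later chosen block on the replicate number in Control and HFD+Mino, Jun (0.99, FDR 0.00456) and Egr1 (0.82, FDR 0.00316) were called, and without Control replicate 3 Jun was. Of all 17344 tested genes the main fit called 369, DESeq2 2342 and the block 2283. The fit without Control replicate 3 called 486 of 17924.

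Libraries of the same group differed more in these genes than in most. The highest over the lowest CPM within a group over the 9 genes had a median of 3.55 for Control, 2.10 for HFD and 4.83 for HFD+Mino, against 1.53, 1.28 and 1.88 over the 14578 tested genes with a mean level of at least that of Fosb. Nr4a1 spread most in Control, by 7.69-fold, and Fosb spread most in HFD+Mino, by 11.7-fold. Control replicate 3 was the highest Control library in 8 of the 9 genes, while it was the highest in 39.5% of all tested genes. Control replicate 1, nearly without PVN marker RNA, was the lowest Control library in 7 of the 9 genes, against 39.7% of all tested genes. The Control spread includes this library and was not computed without it. HFD+Mino replicate 2 was the lowest of its group in 8 of the 9 genes, against 34.8% of all tested genes, and HFD replicate 1, the library with the fewest counts, was the lowest in 7, against 46.1%. Not all genes followed this order, since in HFD Npas4 and Fosb were highest in replicate 1. The mitochondrial share was 1.21% in Control replicate 3 and 6.21% in HFD+Mino replicate 2, and its part was not tested.

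**Figure D3:**
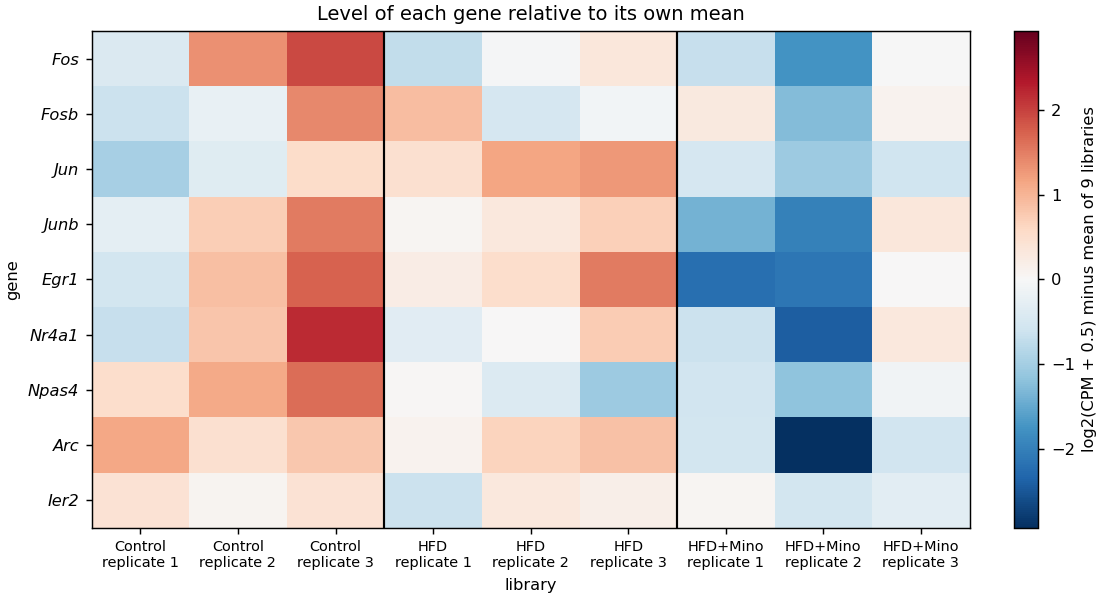
Level of each gene in each library as log2(CPM + 0.5) minus its mean over the 9 libraries, with genes as rows, libraries as columns and lines between the groups. Control replicate 3 is above the mean in all 9 genes and HFD+Mino replicate 2 is below it in all 9.

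Levels of Fos across the 9 libraries were most like those of Nr4a1 among the immediate early genes, with a Pearson r of 0.95 on the log2 scale, followed by Junb (0.89), Egr1 (0.82) and Npas4 (0.77). Jun was least like Fos (0.41). After removal of the group means Jun and Fos had an r of 0.89, so that both varied alike among mice of a group while their group levels differed. On this within-group scale Junb and Egr1 had an r of 0.96. Among the other 14751 tested genes with a symbol and a mean of at least 1 CPM, whose median r with Fos was 0.05, the most like Fos were Lrrc32 (0.96), Gramd1b (0.94), Fnip2 (0.94), Synrg (0.93) and Ddx24 (0.92). These values are descriptions over 9 libraries that share depth and tissue differences, and no test was made of them.

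Relatives of the same families did not all take the same course. The paralogs Fosl1 and Nr4a3 were under the filter on low counts, which left 8 of 10 relatives in the test. Jund, the third Jun family member, is known to be expressed at a steady level in unstimulated cells, and it was at 124, 110 and 141 CPM in Control, 8.48, 30.4 and 18 CPM in HFD and 122, 59.1 and 169 CPM in HFD+Mino replicates 1 to 3. All HFD libraries lay below all others. Jund fell in HFD against Control (log2 fold change -2.72, SE 0.47, FDR 0.00735) and rose in HFD+Mino against HFD (2.62, SE 0.47, FDR 0.00705). It was the 1 of 8 tested relatives called in either comparison, where 1.74% and 4.15% of all tested genes were called. The first call held in 2 and the second in 4 of the 9 fits that left out a library, and neither held with the trend on exon length removed. The first was also lost without Control replicate 1 and with the replicate block, and the second in models of the 2 groups alone. The GC-richest 100 nt of Jund held 86% G and C, and both calls held with the trend on GC content of the transcript removed.

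Egr4 and Egr2 had low levels in HFD+Mino. Egr4 was at 4.30 ± 2.62 CPM in Control, 3.57 ± 1.03 CPM in HFD and 0.868 ± 0.939 CPM in HFD+Mino (SD, n = 3 mice a group), with a log2 fold change of -2.28 (SE 0.75, FDR 0.145) in HFD+Mino against Control. Egr2 was at 0.824 ± 0.451, 0.736 ± 0.455 and 0.190 ± 0.238 CPM in the same order (SD, n = 3 each), with a log2 fold change of -2.05 (SE 0.95, FDR 0.243). Neither passed. Nr4a2 had its highest mean in HFD, at 13.0 ± 9.90 CPM against 4.99 ± 1.88 in Control (SD, n = 3 each), and spread 8.69-fold within HFD. Fosl2 and Ier3 had their highest means in HFD+Mino, at 12.1 ± 5.85 and 26.4 ± 18.2 CPM (SD, n = 3 each), and Ier5 differed least among the groups, by at most 0.51 on the log2 scale. Ier5l was at 0.593 ± 0.248 CPM in HFD against 5.59 ± 1.08 in Control (SD, n = 3 each, FDR 0.0164), which did not meet the threshold.

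Other rapidly induced genes, a list of 28 that were all tested, held 1 called gene in HFD against Control and 1 in HFD+Mino against HFD, and both were Klf2, a Krüppel-like transcription factor that endothelial cells express under blood flow. Of all tested genes 1.74% and 4.15% were called in these comparisons. Klf2 was at 9.12, 12.7 and 13.0 CPM in Control, 0.452, 1.16 and 0.772 CPM in HFD and 4.55, 4.38 and 9.89 CPM in HFD+Mino replicates 1 to 3. It fell by 3.84 on the log2 scale in HFD against Control (SE 0.47, FDR 0.00116) and rose by 2.95 in HFD+Mino against HFD (SE 0.46, FDR 0.00417). The fall was lost without HFD replicate 1 or 3, and the rise was lost in 5 of the 9 fits that left out a library, with the trend on exon length removed and in models of the 2 groups alone. The GC-richest 100 nt of Klf2 held 86% G and C, as did that of Jund, and both calls held with the GC trend removed. The summed level of 5 endothelial markers was 87.6 to 135 CPM in Control, 74.9 to 98.2 CPM in HFD and 48.7 to 88.9 CPM in HFD+Mino, with 0 of the 5 absent from all libraries, and its part was not tested. The list's median log2 fold change was -0.10 in HFD+Mino against Control, where that of the immediate early genes was -1.79, and 4 of the 28 genes were lower at an unadjusted p under 0.05, where 8.63% of all tested genes were.

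Genes that neurons induce later after activity, 15 in the list and all tested, included 4 of 15 that were higher at an unadjusted p under 0.05 in HFD+Mino against HFD, where 21.6% of all tested genes were, and 4 of 15 in HFD+Mino against Control, where 12.7% were. Their median log2 fold change was 0.55 in HFD+Mino against Control and 0.63 in HFD+Mino against HFD, with 11 of 15 above 0 in each. Rgs2, a regulator of G protein signalling, rose in HFD+Mino against HFD (1.53, SE 0.29, FDR 0.00859), the 1 call of the list in that comparison, where 4.15% of all tested genes were called. It was at 98.9, 129 and 119 CPM in Control, 71.2, 81.2 and 75.4 CPM in HFD and 228, 303 and 126 CPM in HFD+Mino replicates 1 to 3. The rise was lost in 6 of the 9 fits that left out a library, with the trend on exon length removed and in models of the 2 groups alone.

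Upstream regulators of the early genes, 28 genes that include Srf, its partners, Creb1 and its coactivators, the MEF2 factors and their kinases, had a median log2 fold change of 0.53 in HFD against Control and of -0.75 in HFD+Mino against HFD. At an unadjusted p under 0.05, 10 of the 28 were higher in HFD than in Control, where 11.3% of all tested genes were, and 14 were lower in HFD+Mino than in HFD, where 19.8% were. Camk2a, a calcium/calmodulin-dependent kinase of excitatory neurons, was the 1 called gene in each, where 1.74% and 4.15% of all tested genes were called. It was at 42.8, 49.5 and 69.2 CPM in Control, 233, 226 and 230.0 CPM in HFD and 62.9, 27.6 and 84.5 CPM in HFD+Mino replicates 1 to 3. It rose in HFD against Control (2.09, SE 0.36, FDR 0.00734) and fell in HFD+Mino against HFD (-1.98, SE 0.36, FDR 0.0076). These calls held in 2 and 4 of the 9 fits that left out a library, and the first was lost without Control replicate 1. The second was lost with the trend on exon length removed and in models of the 2 groups alone. Among 13 dimer partners and corepressors, Nab1, a corepressor of the EGR factors, was the 1 called gene, in HFD against Control, where 1.74% of all tested genes were called. It fell in HFD against Control from 33.9 ± 11.5 to 9.62 ± 1.22 CPM (SD, n = 3 each, log2 fold change -1.82, FDR 0.00849). This call held in 2 of the 9 fits that left out a library, and was lost without Control replicate 1 and with the replicate block. The GC-richest 100 nt of Nab1 held 90% G and C, and the call held with the GC trend removed. In HFD+Mino against Control 0 genes of any of these lists were called, as were 0 of all 17344 tested genes.

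**Figure D4:**
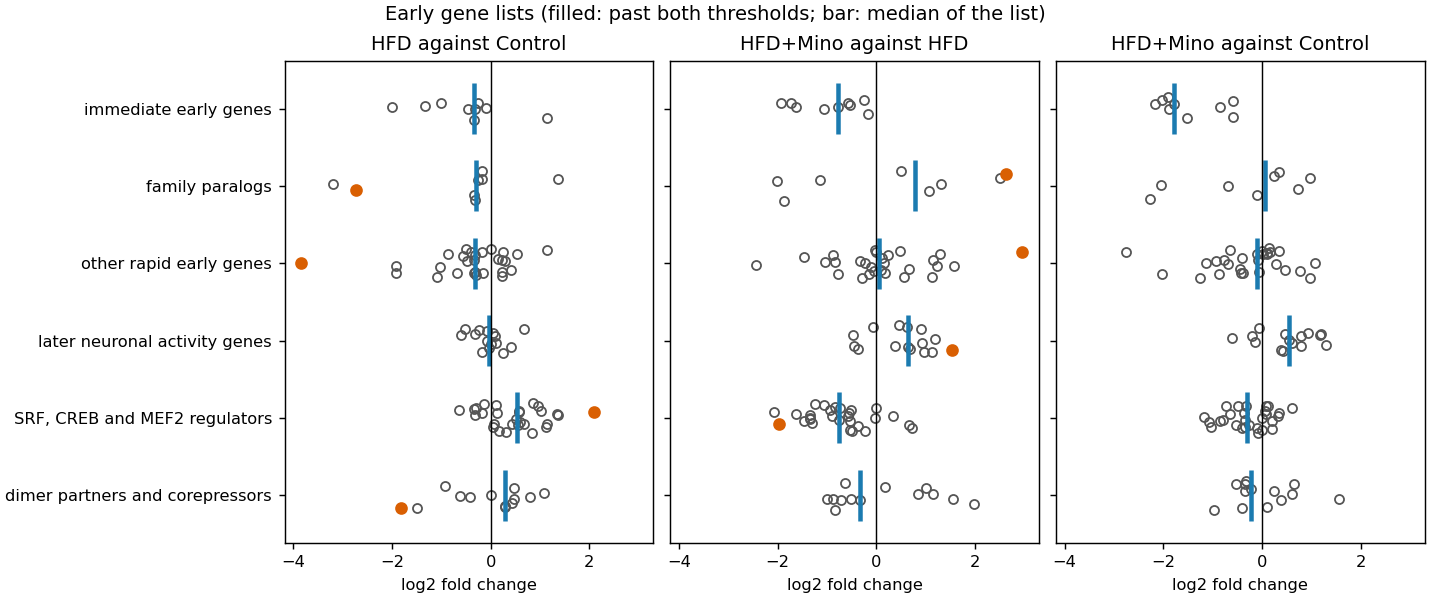
Log2 fold change of each tested gene on the x axis for the immediate early genes and 5 related lists, in the 3 comparisons, with genes past both thresholds filled and a bar at each median. In HFD+Mino against Control the immediate early genes have a median of -1.79, while the median of the later neuronal activity genes is 0.55.

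Markers of other cells in the punches were set beside these values. The 9 neuron markers summed to 5475 to 7955 CPM in Control, 4286 to 6364 CPM in HFD and 4571 to 5151 CPM in HFD+Mino, and 0 of the 9 were absent from all libraries. The 7 microglia markers summed to 183 to 264 CPM, 256 to 266 CPM and 225 to 301 CPM in the same order. The 5 astrocyte markers summed to 1560 to 1722 CPM in Control, 2096 to 2217 CPM in HFD and 961 to 1506 CPM in HFD+Mino. The 3 oligodendrocyte precursor markers summed to 119 to 125.1 CPM in HFD, to 39.5 to 75.0 CPM in Control and to 34.2 to 45.1 CPM in HFD+Mino, so that HFD was highest, as it was for Jun. The 3 ependymal markers summed to 202 to 417 CPM in HFD+Mino and to at most 179 CPM in any other library. Control replicate 1 had 27773 CPM of 5 oligodendrocyte markers, against at most 6561 CPM in any other library. In bulk tissue, fewer cells of a type and less RNA per cell cannot be told apart, and the part of these marker differences in the early gene levels was not tested.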

How the data were processed

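Counts of reads per gene were deposited by the authors without normalization, as 1 table with a column for each of the 9 mice. The authors aligned the reads to mm10 (GRCm38) with HISAT2 and assigned them to genes with featureCounts, whose strand setting and treatment of multi-mapping reads are not given in the sources used here. Libraries came from a low-input cDNA kit and a transposase kit and carry no molecular identifiers, so that precision was taken from the spread between mice. Samples were grouped by their titles, and 0 columns were left unused. Replicate numbers are those of the titles, and the HFD columns of the count table carry other numbers. The replicate block over all groups therefore joins HFD libraries to the others by title number alone. Immediate early genes and related lists were taken by symbol, and both the members and the lists were chosen with earlier results of these data known.

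Analysis used edgeR 4.0.16 and limma 3.58.1 in R 4.3.3, with filterByExpr, TMM scaling and the quasi-likelihood test over 17344 genes, adjusted by Benjamini-Hochberg over all of them, and the code was tested on simulated data. The SE of a log2 fold change was its absolute value divided by the square root of the quasi-likelihood F statistic. DESeq2 1.42.0 was an alternative. Exon lengths and GC content came from GENCODE release M21, with values for 15625 tested genes, positions from RefSeq GRCm38.p6 and summaries from pandas 2.3.3. Replicates differed beyond sampling noise, with chi-square values of 22 to 337 for each degree of freedom. Equally numbered Control and HFD+Mino libraries tended weakly to depart from their group means in the same way (correlations 0.135, 0.163 and 0.292), a pairing seen in the counts alone. Unequally numbered libraries of these groups had correlations from -0.162 to 0.0255. HFD samples did not pair with either group by number, although Control replicate 2 and HFD replicate 1 had a correlation of 0.167. Named genes were the 10 members, the relatives of their families, the called genes of each list and the 5 genes most like Fos. Avp, Oxt, Otp, Mbp and Rn45s describe the libraries and were chosen with their values known.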

Additional observations from a re-analysis of the deposited data

How the results depend on the processing

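The number of called immediate early genes was 0 in each main comparison. In the 3-way test it was 1 with DESeq2, the likelihood ratio test, no filter on low counts, or an FDR under 0.05 (Jun in each), 1 with the replicate block (Egr1) and 2 with the replicate block in Control and HFD+Mino alone, a fit chosen after seeing the data. Of all 17344 tested genes these fits called 2342 (DESeq2), 2234 (likelihood ratio test), 2258 (FDR under 0.05), 488 (replicate block) and 2283 (later block). The main fit called 369, and without the filter 1300 of 25025 were called. In HFD+Mino against HFD the number of called immediate early genes was 2 with DESeq2, with the replicate block over all groups and with an FDR under 0.05, 1 with the likelihood ratio test, no filter, the GC trend removed, or models of the 2 groups alone, and 4 with the replicate block in Control and HFD+Mino alone. In HFD+Mino against Control it was 1 with that last block. Over the fits leaving out 1 library it ran from 0 to 1 in the 3-way test (1 without Control replicate 3), 0 to 3 in HFD+Mino against HFD and 0 to 2 in HFD+Mino against Control, where leaving out HFD+Mino replicate 3 gave the highest counts of the last 2, and it was 0 throughout in HFD against Control, under all alternatives. In HFD+Mino against HFD the main fit called 719 of all 17344 tested genes. DESeq2 called 3878, the likelihood ratio test 3314 and the FDR threshold of 0.05 gave 4757. The replicate block called 1369, the GC trend fit 1433, models of the 2 groups alone 406 of 16742 and no filter 1905 of 25025. For the block in Control and HFD+Mino alone this number is not given here.

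Some directions turned. On the log2 scale, the 3-way distance of Nr4a1 (main -0.08) was 0.066 with the replicate block and 0.10 with the block in Control and HFD+Mino alone, and ran from -0.33 to 0.25 without single libraries. That of Fosb (0.07) was -0.11 and that of Ier2 (-0.03) was 0.29 with the length trend removed, and they ran from -0.43 to 0.51 and from -0.16 to 0.14 without single libraries. In HFD against Control, Egr1 (-0.09) was 0.052 with the replicate block and 0.16 with the later one, and ran from -0.59 to 0.53 without single libraries, Fosb from -1.07 to 1.00 and Junb from -0.82 to 0.066. In HFD+Mino against HFD, Npas4 ran from -0.65 to 0.27 and Fosb from -0.98 to 0.20, and in HFD+Mino against Control Fosb ran from -1.31 to 0.47. The causes were not tested. With 3 mice a group, the SE of the log2 fold changes, 0.32 for Ier2 to 0.95 for Fosb, limits what could be detected.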
